A study of Homo sapiens with 12 samples.

Results

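The interferon-stimulated genes described here are 39 genes, named by symbol, of the 57905 genes in the authors' expression table. The set is known from the biology of interferon, and the rule that picks its members uses their symbols and no measured value. RNA was sequenced from PC9, HCC827 and HCC4006, established human lines of non-small cell lung cancer that carry a mutant EGFR gene. Cells of each line received either the solvent DMSO for 24 hours or 100 nM osimertinib, an EGFR inhibitor, together with 30 nM trametinib, a MEK inhibitor, for 2 weeks. The second group is called dormant in the labels, and each of the 6 groups of line and treatment has 2 libraries, 12 in all. Duration and plate size differed along with the drugs, so their effects cannot be told apart, and no arm had either drug alone. Both plates of a group were set up together and nothing says that they came from separate cultures, so p-values measure only the spread between these plates. The labels name no added interferon and no other cell type in the cultures.

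Interferons are secreted proteins that cells release when they sense foreign or misplaced nucleic acid. Type I and type III interferons bind receptors that activate the kinases JAK1 and TYK2, which phosphorylate STAT proteins, STAT2 among them. STAT2 and IRF9 are subunits of the complex ISGF3, which binds a DNA sequence called the interferon-stimulated response element (ISRE) in the promoters of many genes. Interferon gamma acts at a different site, the gamma-activated sequence (GAS). The products of interferon-stimulated genes block viral entry, degrade or sequester viral RNA, tag proteins and attract T cells. Many are also transcribed at low levels in tumour cells that have met no virus.

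A pair of libraries, 1 in HCC4006 and 1 in HCC827, departed from their replicates. In the second HCC4006 dormant library the glycolytic gene GAPDH was listed at 6.72 FPKM, against 3755 to 19645 FPKM in the other 11, and 1948 tested genes were at 0, against 368 to 802. FPKM are fragment numbers per gene, adjusted for the length of the gene and the size of the library. Against its replicate it gave r = 0.65 across 14699 genes, which are not independent replicates. The second HCC827 DMSO library correlated with the first at 0.91, and the other 4 pairs at 0.98 to 0.99. A relative depth read from the FPKM step of U6 pseudogenes put the second HCC4006 dormant library at 37.8%, and the other 11 at 67.6% to 106.7%, of the depth of the first untreated PC9 library. Results are therefore given with all libraries and again without these 2 libraries that stood apart. The summed FPKM of 10 lung epithelial markers was 994 in the second and 5750 in the first HCC4006 dormant library, 1347 in the second and 11681 in the first untreated HCC827 library, and 9778 to 22970 in the other 8. The epithelial keratins KRT8, KRT18 and KRT19 were at 5.87, 13.0 and 9.905 FPKM in the second HCC4006 dormant library, against 686, 526 and 363 in its replicate. KRT7, CDH1 and NAPSA of the same 10 markers were lower there too. EPCAM, EGFR and NKX2-1 were higher there, at 428.8, 23.58 and 7.8 FPKM against 208.8, 7.065 and 5.81, and SFTPB was at 0.175 against 0. The lung lineage gene NKX2-1 was listed at 0 in all 4 PC9 libraries. The summed FPKM of 8 leukocyte markers was 0.305 to 2.14 in 11 libraries and 9.46 in the second HCC4006 dormant library, with the T cell gene CD3E at 0 throughout. The sum of 5 fibroblast and endothelial markers was 266 and 375 in dormant HCC4006, almost all from the collagen gene COL1A2, against at most 2.92 elsewhere. The part of any of these marker lists in the results was not tested.

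**Figure D1:**
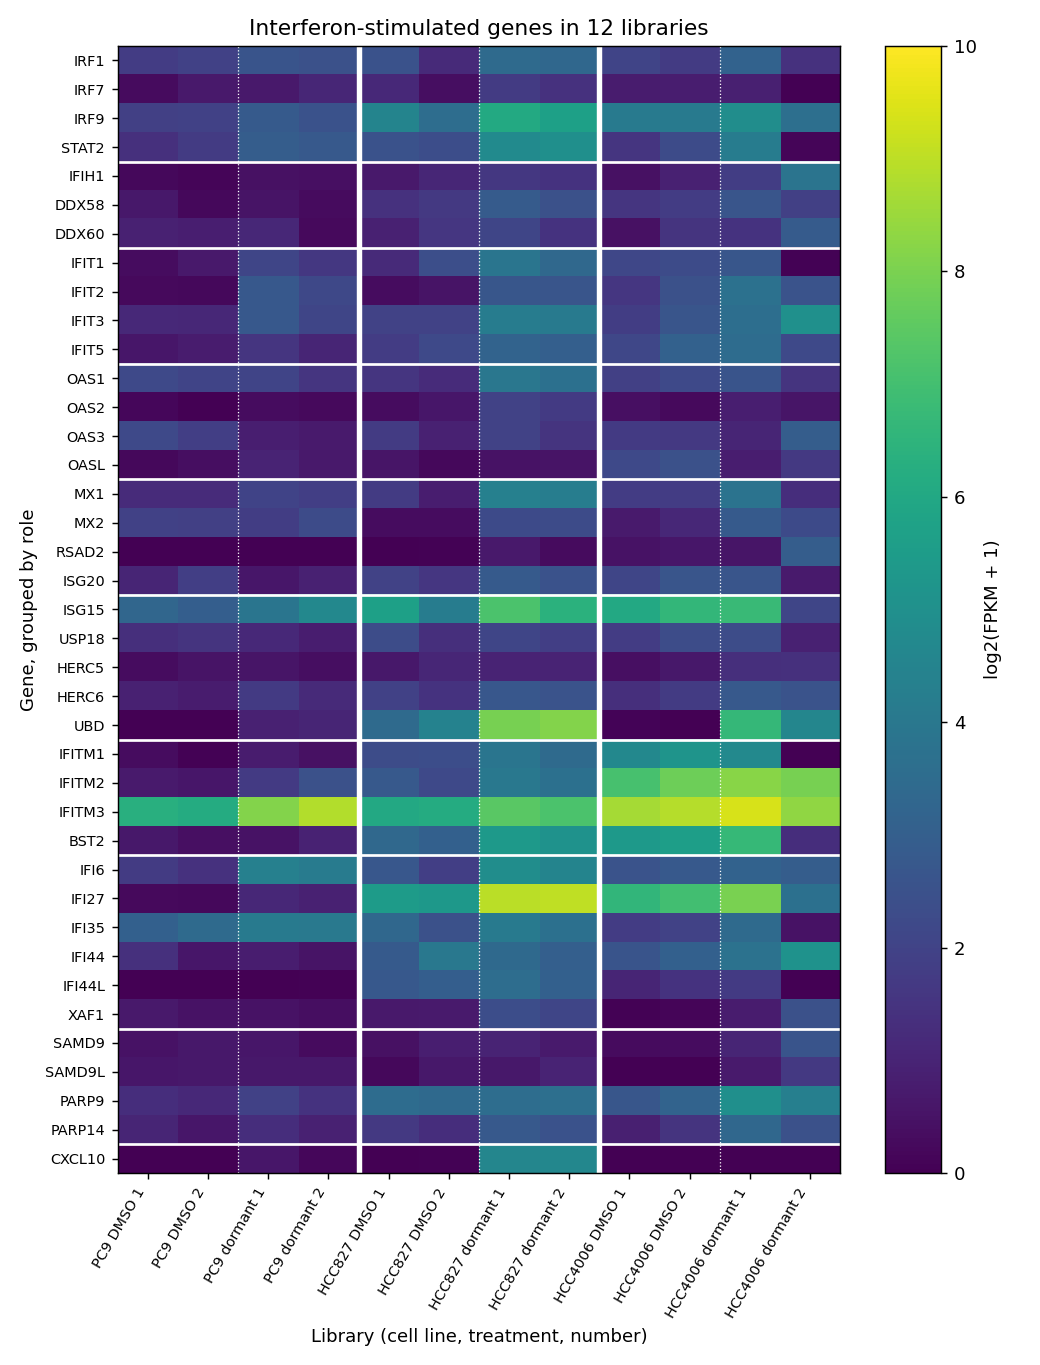
Heat map of log2(FPKM + 1) for the 39 genes (rows, grouped by role with white lines between groups) in the 12 libraries (columns, by line and treatment). The dormant HCC827 columns are brighter than their DMSO columns in most rows, and the second HCC4006 dormant column differs from the first in genes such as STAT2, ISG15, IFITM1 and BST2.

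The levels of the 39 genes spanned a wide range. In untreated cells 1 gene in PC9, 5 or 6 in HCC827 and 7 in HCC4006 reached 10 FPKM in a library, and in dormant cells 4 in PC9, 16 or 18 in HCC827 and 9 or 15 in HCC4006 did so. The sum over the 39 genes was 130.1 and 121.8 FPKM in untreated PC9 and 394.2 and 569.0 in dormant PC9. It was 288.7 and 248.7 in untreated HCC827 and 1461.8 and 1371.7 in dormant HCC827. In HCC4006 it went from 839.4 and 1103.4 to 1796.3 and 788.6, so that the second dormant library lay below both controls. The 4 genes with the highest group means, IFITM3, IFI27, UBD and IFITM2, made up 43.1% to 82.1% of the sum in the 12 libraries. In bulk RNA, fewer cells that express a gene and less RNA per cell cannot be told apart.

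Each difference is the dormant value less the DMSO value in log2(FPKM + 1), a scale that makes changes of genes near 1 FPKM or below smaller than the ratio of their values. A gene was called when its limma adjusted p, adjusted over all 14699 genes tested, was under 0.05. Averaged over the 3 lines, 13 of the 37 genes tested rose and 0 fell, while 10.9% of all tested genes rose and 4.55% fell. The 13 were UBD, IFIT2, IFIT3, IFI6, CXCL10, MX1, MX2, IFITM3, IFITM2, PARP14, XAF1, HERC6 and OAS2. The median difference of the 37 was 0.78, against 0.22 for all genes tested, and their differences ranged from -0.27 to 3.56, with 32 above 0. RSAD2 and SAMD9L were below the filter of 1 FPKM in 2 libraries and were not tested. Another 7 (IRF7, IFIH1, OAS2, HERC5, XAF1, SAMD9 and CXCL10) passed it only through dormant libraries, and of the 30 genes that passed in DMSO libraries alone, 10 rose and 0 fell. Without the 2 libraries that stood apart, 28 of 37 rose and OAS3 fell, but so did 30% and 12.8% of all tested genes. That fit keeps 1 library in each of 2 groups, which are assumed to vary like the others. All 13 genes were called in it too.

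**Figure D2:**
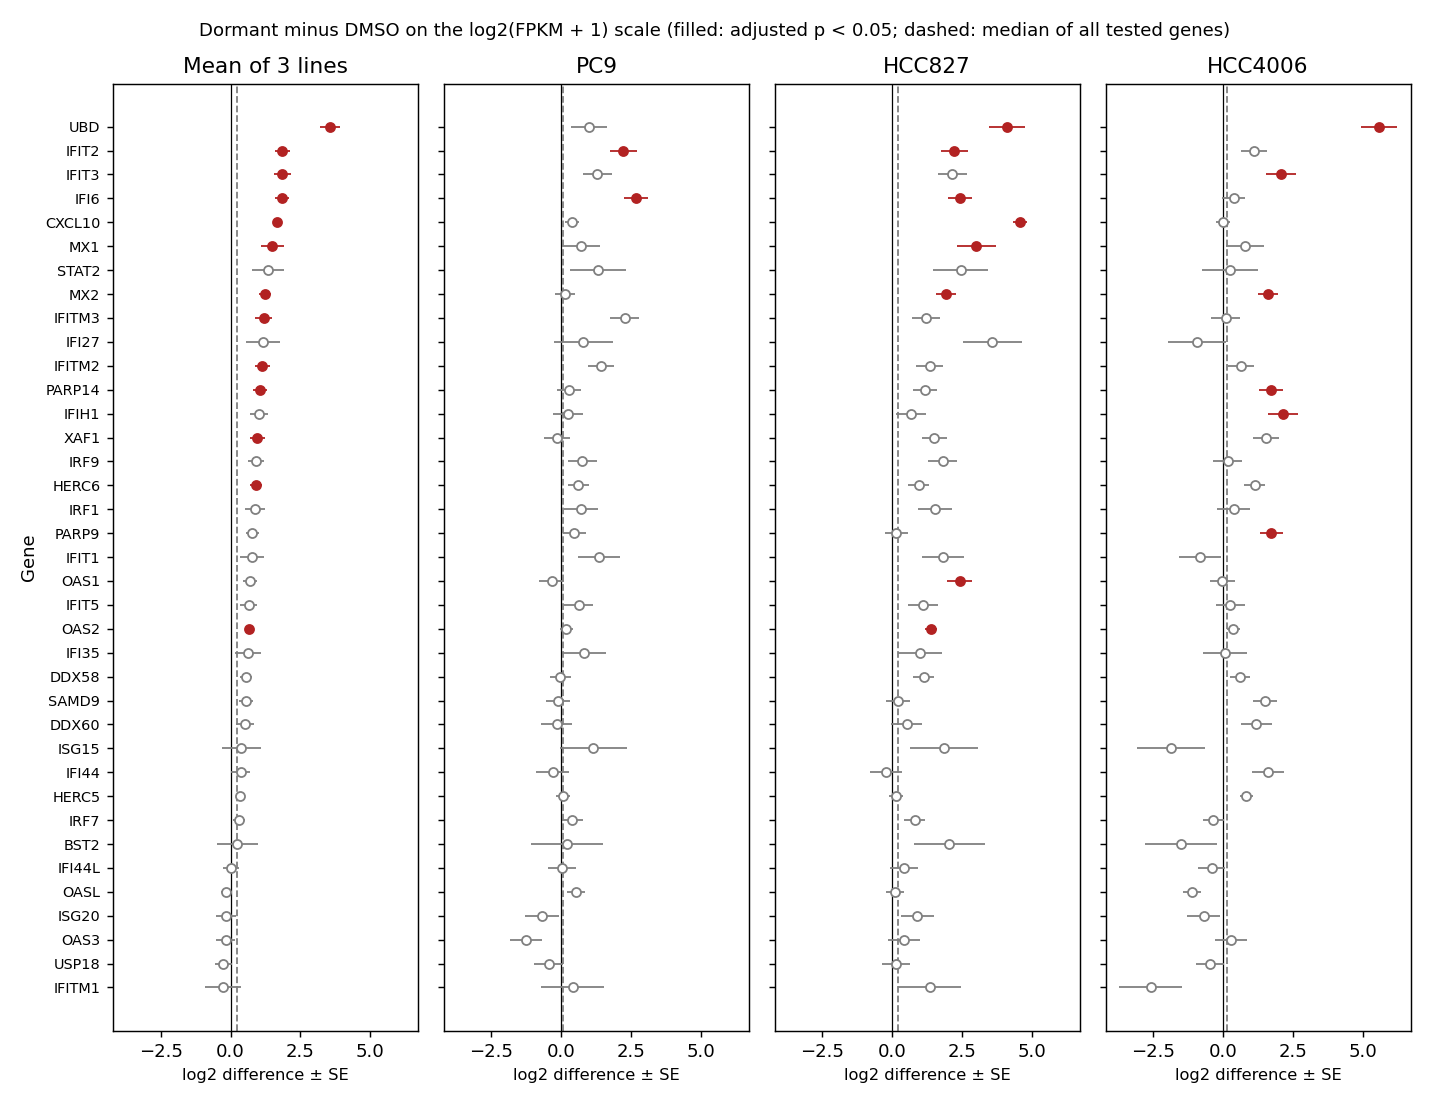
Difference in log2(FPKM + 1), dormant minus DMSO, with its SE (horizontal bars) for the 37 tested genes, as the mean of 3 lines and in each line. Filled points have a limma adjusted p under 0.05, and the dashed line is the median of all tested genes. UBD leads in the mean and in HCC4006, CXCL10 leads in HCC827 alone, and most HCC827 points lie right of the dashed line.

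Promoter sequence was examined because ISGF3 binds the ISRE. RefSeq windows on GRCh38.p14 from 250 bases before to 50 after each annotated start were matched by gene identifier or symbol for 31 of the 39 genes. The ISRE core, searched as GAAA, any 2 bases and GAAA again on both strands with overlaps allowed, was present in 22 of the 31, or 71.0%, against 4.38% of 27305 genes with a window. The GAS motif TTCNNNGAA was present in 10 of the 31, or 32.3%, against 9.38%. A match describes letters only. Of the 22 genes with an ISRE core match 21 were tested and 6 rose in the mean over lines. Of the 9 without, 8 were tested and 3 rose (HERC6, UBD and XAF1). Of the 8 with no window 4 rose (IFIT2, OAS2, MX2 and IFITM2), and of all tested genes 10.9% rose. CXCL10, XAF1 and OAS2, which are among the genes that rose here, passed the filter only through dormant libraries. The stretches below show the match or matches, in capitals, for genes whose values are given next. IFIT3 has 2 annotated starts, and the stretch is from the window of the second, while that of the first holds 2 more matches that are not shown. Each stretch is printed 5′ to 3′ on the gene's strand. A match on the opposite strand reads TTTC, any 2 bases and TTTC.
IFIT1 (chr10:89392492-89392544, plus strand): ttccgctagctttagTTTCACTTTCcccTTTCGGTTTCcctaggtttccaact
IFIT3 (chr10:89332420-89332502, plus strand): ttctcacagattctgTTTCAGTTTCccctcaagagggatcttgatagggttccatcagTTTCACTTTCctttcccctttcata
IFI6 (chr1:27672261-27672363, minus strand): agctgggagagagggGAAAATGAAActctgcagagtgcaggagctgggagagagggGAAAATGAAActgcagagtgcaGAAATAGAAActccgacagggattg
IFI27 (chr14:94110613-94110665, plus strand): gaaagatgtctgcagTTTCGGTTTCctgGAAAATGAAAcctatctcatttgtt
ISG15 (chr1:1013369-1013414, plus strand): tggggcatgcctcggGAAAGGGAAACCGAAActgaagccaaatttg
IFITM3 (chr11:320871-320927, minus strand): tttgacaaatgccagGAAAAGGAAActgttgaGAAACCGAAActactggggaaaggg
BST2 (chr19:17405730-17405775, minus strand): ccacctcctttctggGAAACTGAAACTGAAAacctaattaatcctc
PARP14 (chr3:122680795-122680834, plus strand): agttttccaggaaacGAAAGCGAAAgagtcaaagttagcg
CXCL10 (chr4:76023694-76023733, minus strand): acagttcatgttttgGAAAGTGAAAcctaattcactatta

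**Figure D3:**
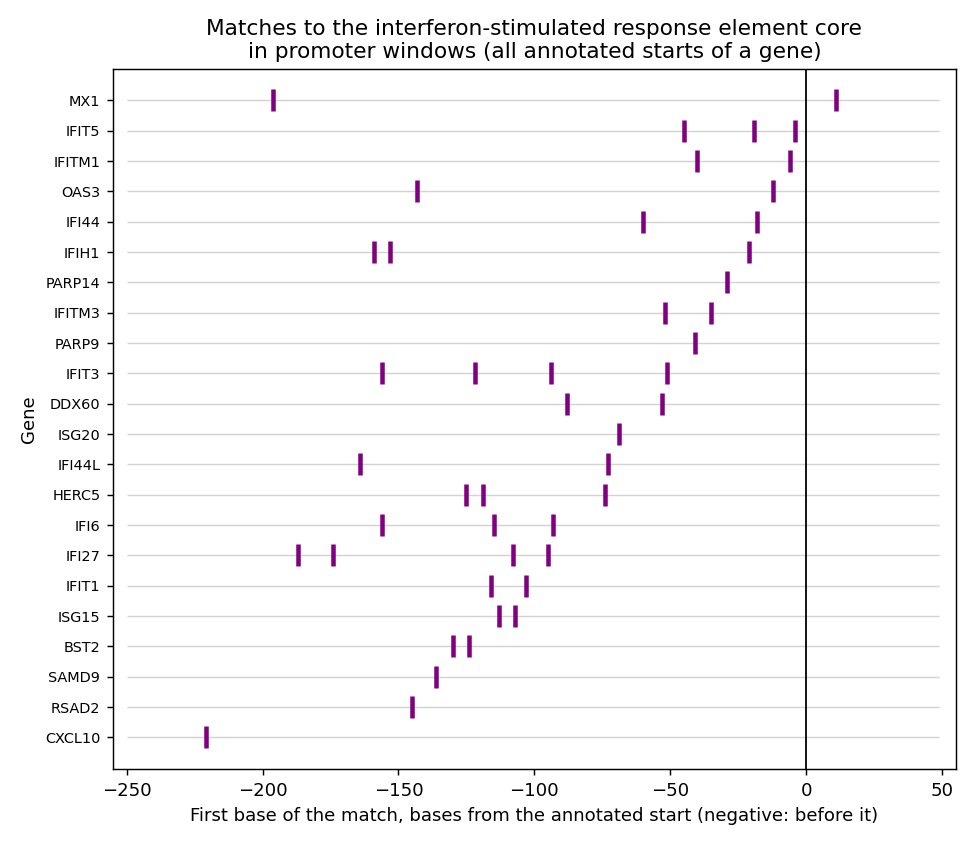
Position of each ISRE core match (vertical ticks, first base) relative to the annotated start at 0 in the 22 genes that hold one, in bases. Grey lines span the window searched, from 250 before to 50 after the start, and genes with several annotated starts show the matches of each. Nearly all matches lie before the start.

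Among the transcription factors of the response, IRF1, IRF7, IRF9 and STAT2, none of 4 was called in the mean or in any line. IRF9, the DNA-binding subunit of ISGF3, was at 2.74 and 2.84 FPKM in untreated PC9 and 6.10 and 4.72 in dormant PC9. In HCC827 it was at 21.9 and 11.1 untreated and 66.1 and 49.8 dormant, the highest level of the 4 factors. In HCC4006 its values overlapped, with 16.4 and 16.3 untreated and 29.1 and 11.7 dormant. Its mean difference was 0.91 ± 0.30 (SE), with a limma adjusted p of 0.0682. STAT2, its partner in ISGF3, had dormant values above both controls in PC9 and HCC827, but in dormant HCC4006 it was at 17.5 FPKM in the first library and 0.110 in the second. All 4 factors lay above their controls in both dormant libraries of PC9 and of HCC827, as did 35.5% and 40.1% of all tested genes. With both libraries that stood apart left out, IRF1, IRF9 and STAT2 rose in the mean, by 0.94, 0.96 and 2.00 (limma adjusted p 0.00153, 0.00131 and 9.33e-05).

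The RNA sensors and helicases IFIH1 (MDA5), DDX58 (RIG-I) and DDX60 detect viral RNA in the cytoplasm or assist in this. IFIH1 rose in HCC4006, from 0.370 and 0.875 FPKM to 2.54 and 13.3, by 2.15 ± 0.53 (SE, limma adjusted p 0.0453). The higher value comes from the second dormant library. IFIH1 was among the genes that passed the filter only through dormant libraries. Elsewhere IFIH1 was at 0.155 and 0.1 FPKM in untreated and 0.350 and 0.330 in dormant PC9, and at 0.625 and 1.11 in untreated and 2.12 and 1.76 in dormant HCC827. Its HCC4006 call was lost in every fit that left out 1 library other than the 2 dormant HCC4006 libraries (limma adjusted p up to 0.298). DDX58 and DDX60 ranged from 0.160 to 6.36 FPKM over all libraries and neither was called.

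The IFIT proteins bind viral RNA and block its translation, and the IFIT genes lie together on chromosome 10. IFIT2 and IFIT3 rose in the mean, and all 4 IFIT genes lay above their controls in both dormant libraries of PC9 and HCC827, against 35.5% and 40.1% of all tested genes. IFIT2 was at 0.205 and 0.155 FPKM in untreated PC9 and 5.78 and 3.44 in dormant PC9, a 25.6-fold ratio of means. In HCC827 it went from 0.255 and 0.460 FPKM to 5.40 and 5.20, a 14.8-fold ratio. Control and dormant libraries were thus far apart in both lines, and IFIT2 rose in each by 2.22 ± 0.48 (SE, limma adjusted p 0.0424 in PC9 and 0.0309 in HCC827). When 1 library was left out, the PC9 call was kept only without either dormant HCC4006 library and the HCC827 call only without any HCC4006 library (limma adjusted p up to 0.337 and 0.22 in the other fits). HCC4006 started higher, at 2.02 and 4.55 FPKM, and had 12.2 and 4.88 when dormant, a difference of 1.11 that was not called. Over the lines IFIT2 rose by 1.85 ± 0.28 (SE, limma adjusted p 0.0025).

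IFIT3, with the pair of ISRE matches shown above at its second annotated start, was at 1.20 and 1.17 FPKM in untreated and 5.70 and 3.24 in dormant PC9. Its HCC827 values were 2.95 and 2.96 untreated and 17.2 and 16.0 dormant. In HCC4006 they were 2.56 and 5.19 untreated and 11.1 and 31.9 dormant. The groups did not overlap in any line, and IFIT3 rose by 1.84 ± 0.31 in the mean (SE, limma adjusted p 0.00406) and by 2.09 ± 0.53 in HCC4006 (limma adjusted p 0.0487). The HCC4006 call was kept in 1 of 12 fits that left out a library, the one without the first dormant HCC4006 library (limma adjusted p up to 0.322 in the others). IFIT1 and IFIT5 were not called with all libraries, and both rose without the 2 that stood apart, by 1.42 and 0.96 (limma adjusted p 0.00056 and 0.00902). IFIT1 was at 5.42 FPKM in the first and 0.050 in the second HCC4006 dormant library.

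The OAS family makes 2-5A, a messenger of the antiviral response, apart from OASL, which has no such activity. OAS2 rose in the mean by 0.65 ± 0.13 (SE, limma adjusted p 0.00926), and OAS1 and OAS2 rose in HCC827. The filter was passed by OAS2 only through dormant HCC827. OAS1 was at 1.94 and 1.37 FPKM in untreated HCC827 and 14.6 and 11.9 in dormant HCC827, an 8.0-fold ratio and a rise of 2.42 ± 0.45 (SE, limma adjusted p 0.0158), which was lost without the second untreated or either dormant HCC827 library (limma adjusted p up to 0.168). In PC9 it was at 3.62 and 3.15 untreated and 3.10 and 1.94 dormant, so that it lay lower in dormant cells there. In HCC4006 the values, 2.75 and 3.67 untreated and 5.08 and 1.80 dormant, overlapped. Whether the change of OAS1 differed between lines did not pass the test (limma F test, adjusted p 0.11). Without the 2 libraries that stood apart that adjusted p was under 0.05.

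OAS2 was tested only because of its dormant HCC827 values, so its calls are not independent of that selection. It stayed under 1 FPKM except in dormant HCC827, where it was at 2.92 and 2.24 after 0.245 and 0.505 in the controls. It rose there by 1.38 ± 0.22 (SE, limma adjusted p 0.00852), a call lost without the first dormant HCC827 library (limma adjusted p 0.0879). Its PC9 values were 0.125 and 0.010 FPKM untreated and 0.245 and 0.180 dormant, and those of HCC4006 were 0.325 and 0.195 untreated and 0.775 and 0.495 dormant. OAS3 and OASL did not follow OAS1 and OAS2. OAS3 was at 3.63 and 2.66 FPKM in untreated and 0.785 and 0.640 in dormant PC9, a difference of -1.27, and OASL at 3.58 and 4.56 in untreated and 0.755 and 2.16 in dormant HCC4006, a difference of -1.10. Neither was called with all libraries. Both fell in those lines without the 2 libraries that stood apart, OAS3 by 1.27 and OASL by 1.52.

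Among the antiviral effectors, MX1 and MX2 encode dynamin-like GTPases that trap viral components, ISG20 an RNA exonuclease and RSAD2 (viperin) an enzyme that makes a chain-terminating nucleotide. Both MX genes rose in the mean. MX1 was at 2.31 and 0.765 FPKM in untreated and 19.2 and 17.7 in dormant HCC827, a 12.04-fold ratio and a rise of 3.01 ± 0.69 (SE, limma adjusted p 0.0379), which stayed called only without either dormant HCC4006 library (limma adjusted p up to 0.264 in the other fits that left out 1). In PC9 it went from 1.34 and 1.32 to 3.03 and 2.60 FPKM. In HCC4006 the controls were at 2.38 and 2.40, the first dormant library at 12.8 and the second below both controls at 1.46. Its mean rise was 1.5 ± 0.40 (SE, limma adjusted p 0.0313).

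MX2 had a different order of lines. It was at 2.82 and 2.70 FPKM in untreated PC9, the highest untreated level, and at 2.57 and 3.84 in dormant PC9, so the groups overlapped. In HCC827 it went from 0.245 and 0.275 to 3.71 and 3.92 FPKM, a 14.7-fold ratio and a rise of 1.93 ± 0.36 (SE, limma adjusted p 0.0157), lost without the second untreated or either dormant HCC827 library (limma adjusted p up to 0.142). In HCC4006 it rose by 1.62 ± 0.36, from 0.655 and 1.17 to 6.18 and 3.76 FPKM (limma adjusted p 0.0309), and in the mean by 1.23 ± 0.21 (limma adjusted p 0.00414). The HCC4006 call was lost without any 1 of the PC9 libraries, the dormant HCC827 or the untreated HCC4006 libraries (limma adjusted p up to 0.236). Dormant levels of MX2 thus lay between 2.57 and 6.18 FPKM in the 3 lines, with unequal untreated levels. ISG20 ranged from 0.520 to 6.19 FPKM and was not called. RSAD2 was under 1 FPKM in 11 libraries and at 6.62 in the second HCC4006 dormant library.

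ISG15 is a ubiquitin-like protein that is attached to other proteins, HERC5 is the ligase that attaches it, and USP18 removes it and also damps the interferon receptor. None of these 3 was called. ISG15 was abundant, with 8.78 and 6.88 FPKM in untreated and 13.9 and 24.3 in dormant PC9. Its HCC827 values were 50.4 and 17.2 untreated and 143 and 83.2 dormant, above both controls in either line. In HCC4006 the controls were at 64.1 and 96.2, the first dormant library at 110.0 and the second at 3.32. Its mean difference was 0.38 ± 0.70 (SE, limma adjusted p 0.738), and it rose by 0.91 without the 2 libraries that stood apart (limma adjusted p 0.0133). USP18 and HERC5 ranged from 0.245 to 4.08 FPKM. HERC6, a relative of HERC5, rose in the mean by 0.90 ± 0.21 (SE, limma adjusted p 0.0204). It went from 0.885 and 0.675 to 2.25 and 1.26 FPKM in PC9, from 2.78 and 1.73 to 5.54 and 4.90 in HCC827 and from 1.52 and 2.32 to 5.98 and 4.82 in HCC4006, with no overlap in any line.

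UBD (FAT10), a ubiquitin-like protein that directs its targets to the proteasome and is induced by interferon gamma and TNF, had the largest mean difference of the 37 genes, 3.56 ± 0.37 (SE, limma adjusted p 0.000426). It was listed at 0 in both untreated PC9 libraries and at 0.915 and 1.055 FPKM in the dormant ones. In HCC827 it went from 9.88 and 20.65 to 246 and 284 FPKM, a 17.4-fold ratio and a rise of 4.11 ± 0.63 (SE, limma adjusted p 0.00723). In HCC4006 it was nearly absent from controls, at 0.060 and 0.020, and at 101 and 23.0 FPKM in dormant cells, a rise of 5.57 ± 0.63 (limma adjusted p 0.00181). Dormant cells lay above controls in all 3 lines, and their dormant levels differed from about 1 FPKM in PC9 to over 200 in HCC827. The HCC827 call was lost when either dormant HCC827 library was left out (limma adjusted p up to 0.0785), and the HCC4006 call was kept in all 12 such fits. The promoter windows of UBD and HERC6 hold neither motif.

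**Figure D4:**
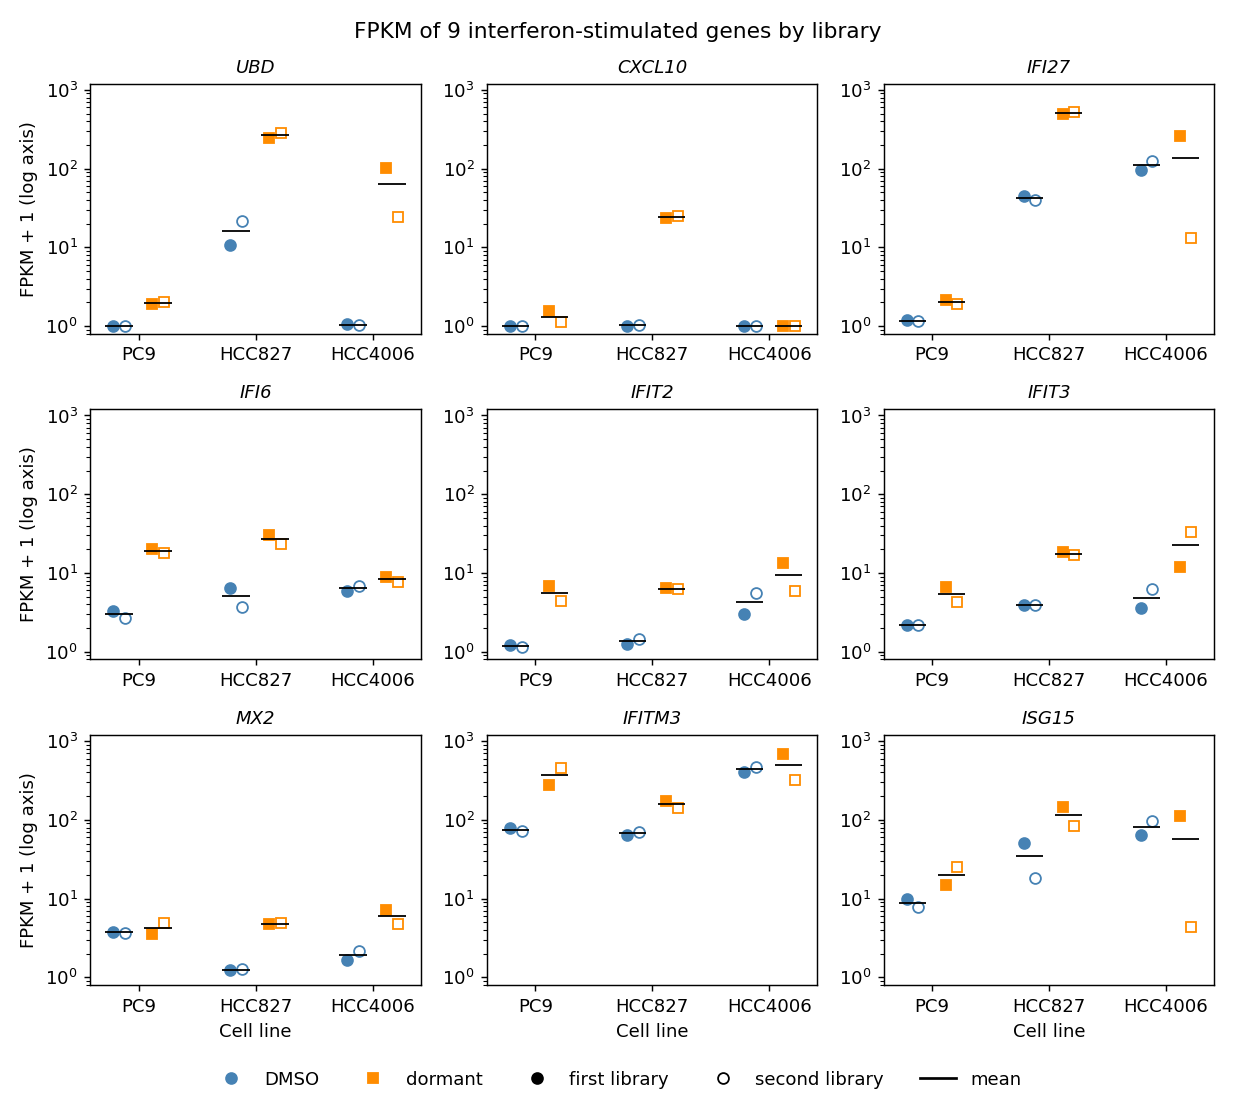
FPKM + 1 on a log axis for 9 of the genes in each library of the 3 lines, with DMSO as blue circles, dormant as orange squares, the second library of each pair open, and the group mean as a black line. UBD reaches 246 and 284 FPKM in dormant HCC827, CXCL10 is above 1 FPKM in dormant HCC827 only, and the open square of dormant HCC4006 lies far below the filled one for IFI27 and ISG15.

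The membrane restriction factors IFITM1, IFITM2 and IFITM3 block the fusion of viruses with the cell membrane or endosome, and BST2 (tetherin) holds budding viruses at the surface. The IFITM genes are neighbours on chromosome 11 with closely similar sequences, so reads could be split between them and their separate values are uncertain. IFITM3 and IFITM2 rose in the mean. IFITM3 was the most abundant of the 39 genes in untreated PC9, at 78.0 and 70.4 FPKM, and was at 279 and 460.4 in dormant PC9, a 5.0-fold ratio whose difference of 2.26 ± 0.52 just missed the threshold in that line (SE, limma adjusted p 0.0514). It was at 64.2 and 69.8 FPKM in untreated and 172 and 142 in dormant HCC827. In HCC4006 the values overlapped, at 404 and 472 untreated and 679.7 and 321 dormant. The mean rise was 1.19 ± 0.30 (limma adjusted p 0.0256).

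IFITM2 was at 0.665 and 0.505 FPKM in untreated and 2.26 and 4.53 in dormant PC9. In HCC827 it went from 5.97 and 3.67 to 15.0 and 12.03. Its HCC4006 levels were far higher in either treatment, at 134 and 223 untreated and 298 and 246 dormant, and the mean rise over lines was 1.14 ± 0.27 (SE, limma adjusted p 0.0219). IFITM1 and BST2 ranged from 0 to 104 FPKM and neither was called. Both had HCC4006 values that split the dormant pair, with IFITM1 at 24.9 and 0 and BST2 at 104 and 1.46. BST2 was at -0.66 in the mean without the first HCC4006 dormant library (limma adjusted p 0.0184) and rose by 1.09 without the 2 libraries that stood apart (limma adjusted p 0.000996), so its direction turned on which dormant HCC4006 library was used.

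Among the IFI genes and XAF1, IFI6, which encodes a small mitochondrial and endoplasmic reticulum protein that opposes cell death and flavivirus replication, rose in 2 lines. In PC9 it went from 2.31 and 1.69 to 19.3 and 17.0 FPKM, a 9.1-fold ratio and a rise of 2.68 ± 0.42 (SE, limma adjusted p 0.00961). In HCC827 it went from 5.495 and 2.67 to 29.3 and 22.1, a rise of 2.44 ± 0.42 (SE, limma adjusted p 0.012), lost without the second untreated or either dormant HCC827 library (limma adjusted p up to 0.154). In HCC4006 the change was small, from 4.87 and 5.88 to 7.92 and 6.67 FPKM, a difference of 0.38. The mean rise was 1.83 ± 0.25 (limma adjusted p 0.00142). The PC9 call was lost when any of the 4 PC9 libraries was left out (limma adjusted p up to 0.153).

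IFI27, a close relative of IFI6 by family, was the most abundant of the 39 genes in dormant HCC827 and was not called with all libraries. It was at 44.4 and 39.6 FPKM in untreated and 498 and 525 in dormant HCC827, a 12.2-fold ratio of means and a difference of 3.58 ± 1.05 (SE, limma adjusted p 0.0955). In PC9 it went from 0.200 and 0.150 to 1.17 and 0.890 FPKM. In HCC4006 the controls were at 95.6 and 124, the first dormant library at 256 and the second at 12.01, and this split enters the SE of every line because the fit shares 1 spread per gene. With both libraries that stood apart left out, IFI27 rose by 1.84 in the mean (limma adjusted p 2.74e-05).

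XAF1, which promotes cell death by binding XIAP, rose in the mean by 0.96 ± 0.26 (SE, limma adjusted p 0.0367) and in no single line. It passed the filter only through dormant libraries. It was at 0.615 and 0.410 FPKM in untreated and 0.385 and 0.310 in dormant PC9, so it lay lower there. In HCC827 it went from 0.620 and 0.660 to 4.17 and 3.21, and in HCC4006 from 0.030 and 0.090 to 0.695 and 4.56. IFI35, IFI44 and IFI44L ranged from 0 to 32.8 FPKM and were not called. IFI44L was at 0 to 0.035 FPKM in all PC9 libraries and at 5.78 to 10.8 in all HCC827 libraries.

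SAMD9 and SAMD9L restrict poxviruses, and PARP9 and PARP14 are ADP-ribosyltransferases linked to interferon signalling. Both PARP genes rose in HCC4006, and whether their changes differed between lines did not pass the test (limma F test, adjusted p 0.405 for PARP9 and 0.457 for PARP14). PARP9 was at 5.31 and 8.06 FPKM in untreated and 30.4 and 19.1 in dormant HCC4006, a rise of 1.73 ± 0.42 (SE, limma adjusted p 0.0406). Its HCC827 values stayed between 9.64 and 11.7 in all 4 libraries, and its PC9 values were 1.47 and 1.25 untreated and 2.84 and 1.76 dormant. PARP14 rose in HCC4006 by 1.72 ± 0.42 (limma adjusted p 0.0431), from 0.855 and 1.86 to 9.22 and 4.60 FPKM. It went from 2.13 and 1.47 to 5.94 and 4.68 in HCC827, was at 1.06 and 0.540 against 1.46 and 0.910 in PC9, and rose in the mean by 1.06 ± 0.24 (limma adjusted p 0.0177). Both HCC4006 calls were lost when any library outside the dormant HCC4006 pair was left out (limma adjusted p up to 0.3). SAMD9 and SAMD9L did not exceed 1.07 FPKM outside the second HCC4006 dormant library, where they were at 5.10 and 2.12.

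CXCL10, a chemokine that attracts T cells through the receptor CXCR3, was at 0 and 0.040 FPKM in untreated HCC827 and at 22.8 and 23.9 in dormant HCC827, a rise of 4.58 ± 0.24 (SE, limma adjusted p 6.25e-05). In PC9 it was listed at 0 in both controls and at 0.535 and 0.115 FPKM in dormant cells. It was listed at 0 in all 4 HCC4006 libraries. The change differed between lines (limma F test, adjusted p 0.000465). It was the only 1 of the 37 genes called in that test, which called 1.48% of all genes tested. CXCL10 was tested only because of its dormant HCC827 values, and 0 of the 30 genes that passed in DMSO libraries alone were called. Without the 2 libraries that stood apart, 10 genes were called (OAS1, OAS2, OASL, MX1, MX2, UBD, IFI6, IFI27, XAF1 and CXCL10), against 8.92% of all genes. OAS2 and XAF1, like CXCL10, passed the filter only through dormant libraries. The mean rise of CXCL10, 1.65 ± 0.14 (limma adjusted p 0.000206), averages differences of 4.58 in HCC827, 0.39 in PC9 and 0.00 in HCC4006.

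By line, HCC827 had the most calls. There 8 of the 37 genes rose and 0 fell, against 3.06% and 1.44% of all tested genes: CXCL10, UBD, MX1, IFI6, OAS1, IFIT2, MX2 and OAS2. Of all 39 genes 31 had both dormant HCC827 libraries above both controls and 0 below, where 40.1% and 19.4% of tested genes did, and 36 lay above the first control alone, against 49.6%. The median difference was 1.34 against 0.22 for all genes. In HCC4006 6 rose and 0 fell (UBD, IFIH1, IFIT3, PARP9, PARP14 and MX2), against 4.88% and 1.18%, and 17 of 39 lay above and OASL below the controls in both libraries, against 30.4% and 15.8%. In PC9 2 rose and 0 fell (IFI6 and IFIT2), against 1.82% and 0.891%, and 23 of 39 lay above and 5 below, against 35.5% and 27%. CXCL10, OAS2 and IFIH1 passed the filter only through dormant libraries. Of the 30 genes that passed in DMSO libraries alone 6 rose in HCC827, 5 in HCC4006 and 2 in PC9, and 0 fell. The PC9 and HCC4006 medians were 0.41 and 0.37, against 0.05 and 0.15 for all genes. Scaling moved the HCC4006 median to 0.09 (median of ratios, all genes -0.02) and 0.26 (quantile, all genes 0.02), with 1 gene called there in either case. The share of all tested genes called under these scalings is not given, so the lower count is not shown to be particular to these genes. In simulated data 1% to 7% of genes changed by 2 log2 units were found in a single line, and 79% in the mean. The simulation held fewer changed genes than were called here in the mean or in any line. The adjusted p depends on that number, so these rates do not measure the power of the comparisons here. The first HCC4006 dormant library alone lay above both controls for 31 of the 39 genes, against 55.7% of tested genes. Without the 2 libraries that stood apart, 19 rose and 0 fell in HCC827 (11.1% and 6.57% of all genes), 16 rose and OASL fell in HCC4006 (14.9% and 3.72%), and 13 rose and OAS3 fell in PC9 (13.1% and 8.65%).

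The calls were of unequal firmness. Every fit that left out a library kept the filter on all 12 libraries. OAS2 and CXCL10 passed it only through the dormant HCC827 libraries, so their calls in these fits are not independent of that selection. In the mean over lines 7 of the 13 genes (IFIT2, IFIT3, OAS2, MX2, UBD, IFI6 and CXCL10) kept their call in each of the 12 fits that left out 1 library and in each of the other settings in which they were tested, 8 for IFIT2, IFIT3, MX2, UBD and IFI6 and 7 for OAS2 and CXCL10, which did not pass a filter of 1 FPKM in 4 libraries. PARP14, HERC6, IFITM2, IFITM3, MX1 and XAF1 lost it in 5, 6, 6, 7, 9 and 10 of the 12, with limma adjusted p of at most 0.0783, 0.087, 0.0846, 0.0926, 0.0914 and 0.109. Leaving out either untreated PC9 library, the first dormant HCC827 library or the first untreated HCC4006 library ended the calls of all 6. The number of genes that rose was 7 in the fits without either untreated PC9 library, the first dormant HCC827 library or the first untreated HCC4006 library. Leaving out either dormant HCC4006 library raised the number. The share of all tested genes that rose in these fits is not given, so the shifts are not shown to be particular to these genes.

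Untreated lines already differed in these genes. In a limma F test across the 3 untreated groups 10 of 37 genes were called (IRF9, OASL, MX2, UBD, IFITM2, IFITM3, IFI27, IFI44, IFI44L and PARP9), against 12% of all tested genes. Both untreated PC9 libraries were the lowest of the 6 untreated libraries for 20 of the 39 genes, both of HCC827 for 3 and both of HCC4006 for 4, where 26.2%, 16.1% and 6.61% of tested genes were. They were the highest for 2, 5 and 11 genes in the same order of lines, against 14.9%, 12.2% and 24.6%. In dormant cells PC9 was again the lowest line for 20 genes, HCC827 for 2 and HCC4006 for 3, against 27.8%, 9.59% and 8.69%. Dormant HCC827 was the highest for 13 genes, HCC4006 for 6 and PC9 for 0, against 12.5%, 28.7% and 11.6%. The pairwise comparisons that follow share their groups and are not independent.

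HCC4006 exceeded PC9 in 9 genes and was below it in 0, against 5.48% and 2.76% of all tested genes. The differences were 6.78 ± 0.47 (SE) for IFITM2 (limma adjusted p 3.31e-05), 6.55 ± 1.05 for IFI27 (limma adjusted p 0.00434), 4.98 for BST2, 4.74 for IFITM1, 2.54 for IFITM3, 2.2 for IRF9, 2.03 for OASL, 1.79 for IFIT2 and 1.68 for PARP9. HCC827 exceeded PC9 in 7 genes, against 4.11% of all, namely IFI27, UBD, IFI44L, IFI44, PARP9, IRF9 and IFITM2, by 1.85 to 5.19. MX2 was lower in HCC827 than in PC9 by 1.58 ± 0.36 (SE, limma adjusted p 0.0248), where 4.14% of all genes were lower. HCC4006 exceeded HCC827 in IFITM2 by 4.93, IFITM3 by 2.69 and OASL by 1.94, and UBD was lower by 3.88 (limma adjusted p 0.00588), against 3.52% and 1.84% of all genes. IFITM2 thus followed the order PC9, HCC827, HCC4006 with each step called, while UBD was above 1 FPKM only in HCC827 among untreated cells. Without the 2 libraries that stood apart, 21 genes differed among untreated lines (48.4% of all genes), 14 between HCC827 and PC9 (25.6%), 20 between HCC4006 and PC9 (43.1%) and 10 between HCC4006 and HCC827 (19.7%).

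Genes that act before and beside the 39 were counted from fixed lists. Of 21 interferon genes, 15 were listed at 0 in all 12 libraries and 20 stayed under 1 FPKM in all. IFNE, an epithelial type I interferon, was the exception, with 1.04 FPKM in the second untreated HCC4006 library and 4.61 in the second dormant one. The last of these libraries stood apart from its replicate, in which IFNE was at 0.015. IFNE was the only interferon tested, through these 2 libraries, and was not called with all libraries (0.50 in HCC4006, limma adjusted p 0.596). With both libraries that stood apart left out its HCC4006 difference was -0.74. The filter still used all 12 libraries there. Of the 2 values that let IFNE be tested only that of the control remained, so this difference does not test a fall. Of 10 tested genes for receptors, kinases and STAT proteins, only JAK1 rose in the mean, by 1.36 ± 0.25 (SE, limma adjusted p 0.00652), where 10.9% of all tested genes rose. It went from 2.60 and 1.96 to 7.79 and 6.46 FPKM in PC9, from 7.23 and 7.62 to 21.2 and 24.6 in HCC827 and from 3.42 and 7.80 to 15.0 and 13.3 in HCC4006, without overlap in any line. All 10 differences of this list were above 0, with a median of 0.89, and without the 2 libraries that stood apart 9 rose, against 30% of all tested genes.

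Of 9 tested negative regulators 1 rose in the mean, against 10.9% of all tested genes: PTPN6, the phosphatase SHP-1, by 1.18 ± 0.32 (SE, limma adjusted p 0.0362). Among 15 tested genes of nucleic acid sensing 3 rose and 0 fell, against 10.9% and 4.55% of all tested genes: TLR3, a receptor for double-stranded RNA, by 1.35 (limma adjusted p 0.0156), the adaptor MYD88 by 1.33 (limma adjusted p 0.0479) and the RIG-I-like protein DHX58 by 0.77 (limma adjusted p 0.00809). TLR3 and DHX58 were tested only because of their dormant levels, since fewer than 2 DMSO libraries reached 1 FPKM, and of the 11 genes of the list that passed in DMSO libraries alone 1 rose. TLR3 also rose in HCC4006, from 0.025 and 0 to 2.95 and 13.0 FPKM, by 2.88 (limma adjusted p 0.0135). Of 37 tested genes in a list of other interferon-stimulated genes, 17 rose and 0 fell in the mean, with a median of 0.89, against 10.9%, 4.55% and 0.22 for all tested genes. Of these 17, 6, TRIM22 and CXCL11 among them, passed the filter only through dormant libraries, and of the 29 genes that passed in DMSO libraries alone 11 rose. The 4 with the largest differences were the death ligand TNFSF10 (TRAIL) at 2.41 (limma adjusted p 0.00105), the GTPase GBP2 at 1.91 (0.000872), TRIM22, a restriction factor, at 1.70 (0.000206) and TMEM140 at 1.55 (0.0379). In that list 0 genes were called in PC9, 7 rose in HCC827 and 11 in HCC4006, against 1.82%, 3.06% and 4.88% of all tested genes that rose in these lines, and TRIM22 differed in its change between lines (limma F test, adjusted p 0.00139). It went from 0.325 and 0.175 to 18.0 and 21.3 FPKM in HCC4006, had a 9.98-fold ratio of means in HCC827 and was at most 0.160 in all PC9 libraries.

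**Figure D5:**
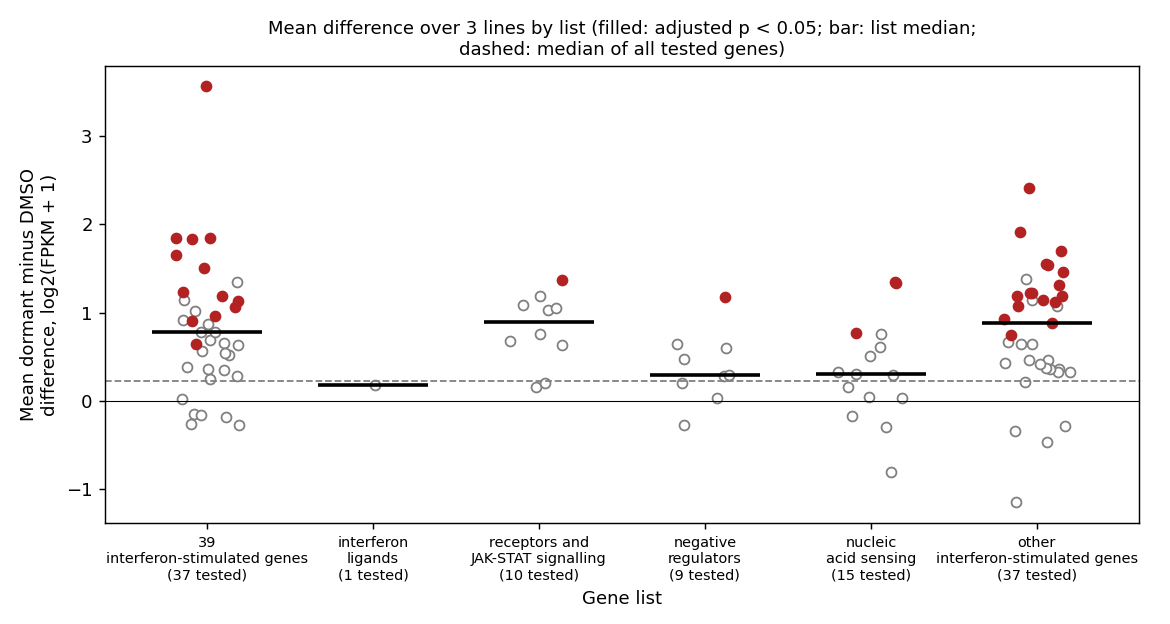
Mean difference over 3 lines in log2(FPKM + 1), dormant minus DMSO, for each tested gene of the 39 and of 5 related lists, with the list median as a bar and the median of all tested genes, 0.22, as a dashed line. Filled points have a limma adjusted p under 0.05. Both lists of interferon-stimulated genes and the receptor list have medians between 0.78 and 0.89, above those of the negative regulators and the sensing genes.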

How the data were processed

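Stranded mRNA libraries were sequenced from 12 samples, 2 for each of 6 groups. The authors deposited FPKM per gene, rounded to 0.01. The submitters' processing notes name STAR 2.5.1b, Cufflinks 2.2.1, DESeq2 1.10.1 and, as builds, hg19 with GRCh37, but no roles. The 2 columns of each library, whose difference is not stated, were averaged. No counts were used, so depth is unknown apart from the relative depth given above.

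Genes with at least 1 FPKM in 2 of 12 libraries (14699) were fitted as log2(FPKM + 1) with 1 coefficient per group in limma 3.58.1 (R 4.3.3; eBayes with trend, 6 residual and 3.84 prior degrees of freedom, two-sided, Benjamini-Hochberg over all genes tested). Contrasts were dormant minus DMSO per line and averaged, their difference between lines, and differences among untreated lines. The fit was tested on simulated data with 200 changed genes. Python 3.11.15 (pandas 2.3.3, numpy 2.4.6, matplotlib 3.10.9) was used for the rest. Promoters are RefSeq, on a later build than the FPKM values.

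The 39 genes and all lists were chosen with earlier results of these data known. Members called in the mean or a line, and the 6 with the highest group FPKM, were given in every library, the rest by range. Up to 4 called genes per related list were named, and JAK1. A gene that the rule names is not reported here, and all fits and list counts include it. IKBKE and CCL5 are not analysed here. Alternatives were another pseudocount, other filters, 2 scalings, 1 column per library, a replicate block and each library left out. Leaving out both libraries that stood apart was chosen after seeing the data. Fits that left libraries out kept the filter on all 12 libraries.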

Additional observations from a re-analysis of the deposited data

Results flagged for a closer look

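The change of CXCL10 differed between the lines in the test of the difference itself (limma F test, adjusted p 0.000465), with a rise of 4.58 in HCC827, 0.39 in PC9 and 0.00 in HCC4006 on the log2(FPKM + 1) scale. Both dormant HCC827 libraries, at 22.8 and 23.9 FPKM, lay above all 10 other libraries, of which the highest was at 0.535. CXCL10 passed the filter only through these dormant HCC827 libraries. CXCL11, a neighbouring chemokine of the same receptor, rose in HCC827 as well, from 0.095 and 0.430 to 8.04 and 5.93 FPKM, by 2.66 (limma adjusted p 0.00673). Its change did not differ between lines at the threshold (limma F test, adjusted p 0.111). CXCL11 too passed the filter only through dormant libraries.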

How the results depend on the processing

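The number of genes that rose in the mean over lines was 9 to 14 in the planned settings other than leaving out a library, and 0 fell in each. Leaving out 1 library gave 7 to 26 that rose and 0 to 2 that fell, 0 to 7 called in PC9, 1 to 23 in HCC827, 1 to 24 in HCC4006, 1 to 26 whose change differed between lines and 3 to 20 that differed among untreated lines. The untreated pairs gave 0 to 15 for HCC827 against PC9, 1 to 19 for HCC4006 against PC9 and 1 to 10 for HCC4006 against HCC827. Leaving out both libraries that stood apart gave 28 and 1 in the mean, 14 in PC9, 19 in HCC827, 17 in HCC4006, 10 between lines, 21 among untreated lines, and 14, 20 and 10 for those pairs. In HCC4006, 6 genes were called with the settings of the report, 3 with a pseudocount of 0.1, 3 from the first column of each library, and 1 without a filter, under quantile normalization, under median of ratios scaling and with the replicate block. Without a filter 1 gene was called in PC9, 4 differed for HCC827 against PC9 and 5 for HCC4006 against PC9. A filter of 1 FPKM in 4 libraries called 0 genes between lines, because CXCL10 was then not tested, and quantile normalization called 3. Scaling moved the median of all genes in the mean from 0.22 to 0.03 in both cases and that of the 37 genes from 0.78 to 0.52 (median of ratios) and 0.57 (quantile), with 11 and 12 genes that rose. The cause of these changes was not tested. The share of all tested genes called is not given for the fits that left out 1 library or for the other planned settings. The counts therefore do not show whether the swings were particular to the interferon-stimulated genes.

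Replicate numbers were not shown to pair the samples: deviations of same-numbered libraries correlated at 0.09, 0.04 and 0.17 in PC9, HCC827 and HCC4006. With a replicate block 9 genes rose in the mean, 0 were called in PC9, 2 in HCC827, 0 between lines, 4 among untreated lines, and 3 in each untreated pair. Among differences called in at least 1 of the 2 fits compared, directions reversed for 4 genes. Without the first HCC4006 dormant library BST2 was at -0.66 in the mean, and STAT2 and IFI35 were at -1.77 and -1.39 in HCC4006, against 1.15, 2.29 and 1.56 without the second. Without both libraries that stood apart BST2 and IFI27 were at 1.20 and 1.23 in HCC4006. Differences called in neither fit were not counted, though some changed sign as well. In HCC4006 ISG15 went from -1.86 with all libraries to 0.48 without both that stood apart, and IFIT1 from -0.83 to 0.48. Depth limits genes under 1 FPKM most, and a gene not called in a line is not shown to be unchanged there.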

Other observations

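TBK1, the kinase that activates IRF3 after nucleic acid is sensed, differed between untreated lines, and its mean treatment difference of 0.75 was not called (limma adjusted p 0.137). It was at 89.0 and 88.6 FPKM in untreated and 160 and 124 in dormant HCC827. In the other 8 libraries it was at 2.00 to 23.0 FPKM. Untreated HCC827 exceeded untreated PC9 by 4.50 on the log2(FPKM + 1) scale (limma adjusted p 0.000942) and untreated HCC4006 was 3.91 below it (limma adjusted p 0.00274). APOL1, an interferon-inducible apolipoprotein, was also highest in untreated HCC827, at 35.7 and 47.7 FPKM, against 5.69 and 6.33 in PC9 and 1.02 and 2.30 in HCC4006. Untreated HCC827 exceeded PC9 by 2.60 (limma adjusted p 0.012) and HCC4006 was 4.03 below HCC827 (limma adjusted p 0.00137). Both genes were chosen after their values were seen. APOL1 rose in dormant HCC4006 by 2.92 (limma adjusted p 0.0111).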
